A study of Homo sapiens with 9 samples.

Results

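The genes described here are those of the cyclin D, CDK4/6 and RB pathway: the D cyclin genes CCND1, CCND2 and CCND3, the kinase genes CDK4 and CDK6, the inhibitor genes CDKN1B and CDKN2C, and the pocket protein genes RB1, RBL1 and RBL2. They were taken by gene symbol from 2 deposited tables of read counts, and all 10 were found among the 18293 genes present in both tables. The set was selected on measured values, without a statement of which. The lower CCND1 with AMI-1, seen earlier in these libraries, is taken here to be the value behind the choice. For the 10 genes the comparison of AMI-1 with control is therefore a description: no p-value is given for it, its intervals show only the spread of the libraries, and nothing is read from whether a gene passed in it. The labels describe HMEC-1 cells, a human microvascular endothelial line, in MCDB131 medium with 5.5 mM glucose. The line was immortalised with the SV40 large T antigen, a viral protein that binds the RB family, and every group carries it. Cells were exposed for 16 h to 100 µM AMI-1 dissolved in DMSO, to 100 µM AMI-5 dissolved in DMSO, or to DMSO alone as the control. Both compounds were described as inhibitors of protein arginine methyltransferases, and the study asked how the transcriptome of these cells responded to them. Poly-A RNA was sequenced from 3 libraries of each group, numbered 1 to 3.

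D cyclins are made in response to growth signals and bind CDK4 or CDK6 in the G1 phase of the cell cycle. The active kinases phosphorylate RB1 and its relatives, which otherwise hold E2F transcription factors inactive, and so allow genes of DNA replication to be transcribed. CDKN2C binds CDK4 and CDK6 directly, whereas CDKN1B binds cyclin-kinase complexes and is best known as an inhibitor of CDK2.

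Counts in genes of both tables summed to between 14451343 and 24691456 per library. Of 18 endothelial markers 16 were in the tables, CDH5, VWF and KDR among them, whereas PECAM1 and CLDN5 were not. Their summed level was 1377.5 to 1888.5 CPM (read counts scaled to the same library total) in control libraries, 1504.8 to 1843 with AMI-1 and 1206.7 to 1586.8 with AMI-5. Of 6 fibroblast markers 5 were in the tables, including COL1A1 and COL1A2 but not DCN, at summed levels of 2937.9 to 4215.5, 3082.1 to 4001.5 and 2487.2 to 3160.7 CPM in control, AMI-1 and AMI-5. Of 8 smooth muscle and pericyte markers 7 were in the tables, at 226.01 to 481.4, 254.71 to 436.66 and 199.77 to 377.6 CPM. Of 7 epithelial and keratinocyte markers 2 were in the tables, KRT14 and KRT10, whereas EPCAM and CDH1 were among those that were not. The summed level of these 2 was 19.6 to 21.5, 20.3 to 22.5 and 19.4 to 25.1 CPM in control, AMI-1 and AMI-5. Of 6 blood cell markers 2 were in the tables, CD14 and CD68, whereas PTPRC was not. Their summed level was 28.7 to 40.5, 33.7 to 43.0 and 32.7 to 49.8 CPM. Whether cell makeup had a part in the results below was not tested, and in bulk RNA a lower level from fewer cells cannot be told apart from less RNA per cell.

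Genes were tested with edgeR's quasi-likelihood F test, with p-values adjusted by the Benjamini-Hochberg method over all 18284 genes that passed the count filter. All 10 genes passed that filter. The labels do not say that the libraries came from separate cultures, so the p-values measure the spread between these libraries. Libraries of the same number deviated together, so the fitted values and calls below come from a fit with the replicate number as a block, unless another fit is named. The block changed the calls. Without the block 0% of all genes, and none of the 10, had an adjusted p under 0.05 in any of the 3 comparisons. At an unadjusted p under 0.05 that fit had 187 genes for AMI-1 and 485 for AMI-5, each set against control, and 478 between the compounds, where DESeq2 without the block called 3, 19 and 36. edgeR's common biological coefficient of variation, the spread between libraries beyond counting error, was 23.7% without the block and 5.64% with it.

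CCND1, whose product is the main partner of CDK4 in many adherent cell types, was lower in every library of both compounds than in any control library. Its level was 248, 213 and 227 CPM in control libraries 1, 2 and 3. With AMI-1 it was 195, 178 and 186 CPM. With AMI-5 it was 182, 162 and 181 CPM. The 3 control libraries stood above all 6 treated ones, and the AMI-1 and AMI-5 ranges overlapped. Group means were 229 ± 17.5 CPM in control, 186 ± 8.20 with AMI-1 and 175 ± 10.9 with AMI-5 (SD, n = 3).

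With the replicate block CCND1 fell by 0.39 on the log2 scale with AMI-5, which is a fold of 0.763 or 23.7% less (SE 0.05, 95% interval -0.50 to -0.28, edgeR adjusted p = 0.000302). The difference between libraries of the same number was -0.45, -0.39 and -0.33. The call was kept when each of the 9 libraries was left out, with adjusted p between 5.76e-08 and 0.0183. Without the block the estimate was the same, -0.39, with an interval of -0.62 to -0.16 and an edgeR adjusted p of 0.9999 (unadjusted p = 0.0040), and DESeq2 without the block gave an adjusted p of 0.0653. For AMI-1 the fitted log2 change was -0.30, a fold of 0.812, with an interval of -0.41 to -0.19, and the number-matched differences were -0.35, -0.26 and -0.29. The 2 comparisons share the control libraries, so their common direction is not independent. The set is taken to have been chosen on CCND1 against these same controls. The p-values of CCND1 with AMI-5, here and below, are therefore not free of that choice and may be too small. Set directly against AMI-1, AMI-5 differed for CCND1 by -0.09 (interval -0.20 to 0.02, edgeR adjusted p = 0.369 with the block), so a gap of up to 0.20 between the compounds could not be told from none.

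**Figure D1:**
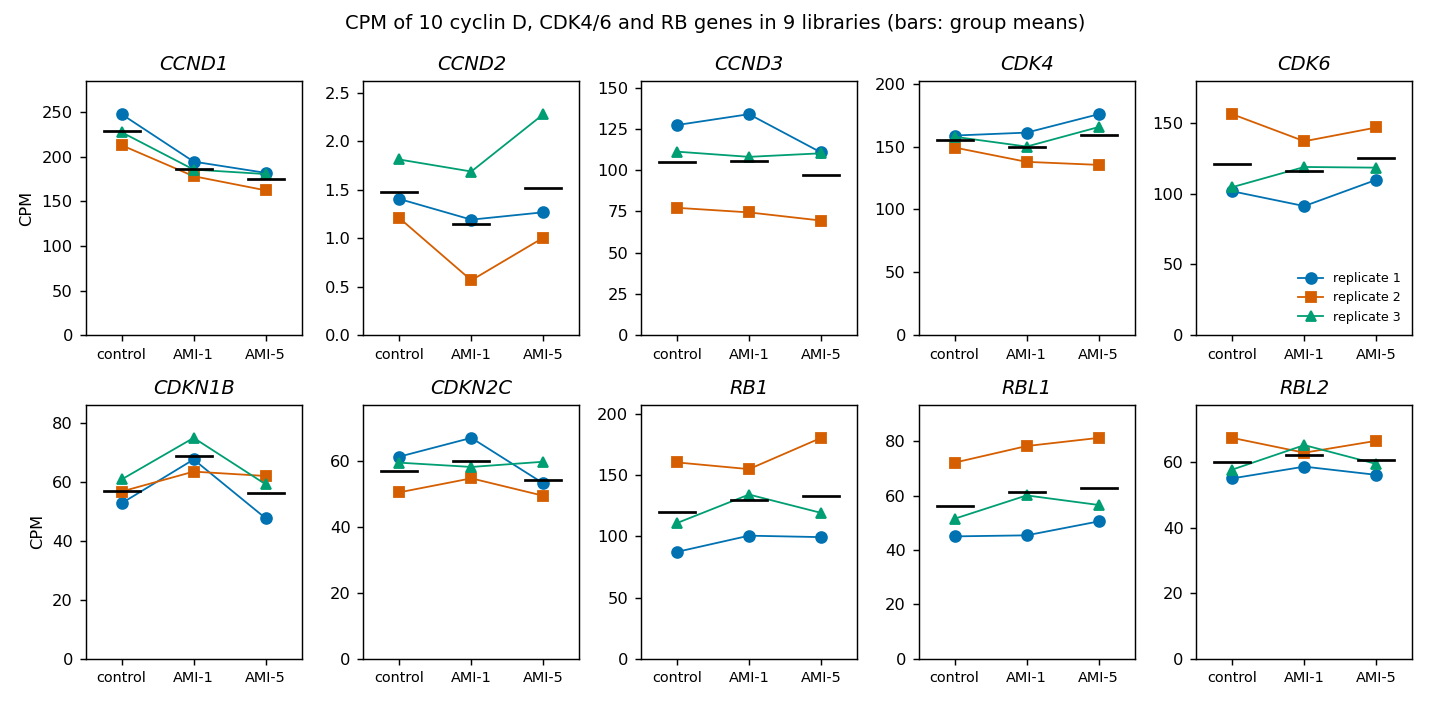
Level of each of the 10 genes in CPM (linear axis from 0) in control, AMI-1 and AMI-5 libraries. Points are single libraries, lines join libraries of the same replicate number and black bars are group means; the control points of CCND1, 213 to 248 CPM, lie above all of its treated points, and for RB1, RBL1 and CCND3 the replicate numbers are farther apart than the groups.

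The other D cyclins did not pass the test in either comparison with AMI-5. CCND3, which can pair with the same kinases, was at 127, 77.2 and 111 CPM in control, 134, 74.4 and 108 under AMI-1 and 111, 69.4 and 110.2 under AMI-5. Library 2 was lowest in each group, and the groups overlapped throughout. The fitted log2 change of CCND3 with AMI-5 was -0.12 (interval -0.25 to 0.01, edgeR adjusted p = 0.228 with the block) and -0.021 with a correction for the GC content of transcripts added, and with AMI-1 it was -0.0059 (interval -0.14 to 0.13). CCND2 was barely present, with 10 to 54 counts per library. Its level was 1.41, 1.21 and 1.81 CPM in control, 1.19, 0.566 and 1.69 under AMI-1 and 1.27, 1.01 and 2.28 under AMI-5. The interval of its AMI-5 change, -0.42 to 0.54 on the log2 scale, allows changes in either direction larger than that of CCND1.

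Set per length of the longest annotated transcript, CCND1 and CCND3 were the D cyclins of these cells at levels of the same order. As RPKM, the length-scaled form of CPM, CCND1 was at 53.3 in control, 43.2 with AMI-1 and 40.6 with AMI-5, and CCND3 was at 44.0, 44.0 and 40.4. CCND1 supplied 55.1% ± 4.62 of the summed D cyclin level in control, 50.1% ± 6.34 with AMI-1 and 50.5% ± 5.10 with AMI-5 (SD, n = 3). CCND2 supplied 0.235%, 0.199% and 0.284%. In library 1 the CCND1 share went from 51.9% in control to 44.6% with AMI-1 and 47.6% with AMI-5, in library 2 from 60.4% to 57.0% and 56.4%, and in library 3 from 53.1% to 48.7% and 47.5%. It was lower with each compound than in the control of the same number in all 3 sets, although the group ranges overlapped. The shares use the control and AMI-1 values on which CCND1 is taken to have been selected. Nothing is therefore read from their direction. The size of the share depended on the length used: with all annotated exons of a gene merged, CCND1 supplied 72.4%, 68.2% and 68.5%, and CCND3 supplied 27.3% in control in place of 44.7%.

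The kinases did not pass the test with AMI-5. CDK4, one of the catalytic partners of the D cyclins, was at 159, 149 and 158 CPM in control, 161, 138 and 150.0 under AMI-1 and 176, 135 and 166 under AMI-5. Its spread was wider in the treated groups, which reached both above and below the control libraries. The log2 change with AMI-5 was 0.03 (interval -0.10 to 0.15, edgeR adjusted p = 0.803 with the block), or 0.097 with the GC correction, and the value with AMI-1 was -0.06 (interval -0.18 to 0.07). Between the compounds CDK4 differed by 0.08 (edgeR adjusted p = 0.466 with the block). It passed the threshold there once the GC correction was added to the block (0.13 higher with AMI-5, edgeR adjusted p = 0.0377).

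CDK6, the second catalytic partner, was at 102, 156 and 105 CPM in control, 91.2, 137 and 119 under AMI-1 and 109.8, 147 and 118 under AMI-5. Library 2 was highest in every group and the groups overlapped. Its log2 change with AMI-5 was 0.07 (interval -0.08 to 0.21, edgeR adjusted p = 0.575 with the block), or -0.037 with the GC correction. With AMI-1 it was -0.05 (interval -0.20 to 0.10), or -0.10 (interval -0.19 to -0.01) with the GC correction. Between the compounds it was 0.12 (interval -0.03 to 0.26, edgeR adjusted p = 0.383), or 0.065 with the GC correction, and passed without AMI-1 library 3 (0.22, adjusted p = 0.0076). That fit called 3465 genes between the compounds, beside 296 higher and 636 lower of 18284 with all libraries. Per length of the longest transcript CDK4 was at 74.8 RPKM and CDK6 at 10.4 RPKM in control, so CDK4 made up 87.8% ± 3.08 of the 2 kinases in control, 87.8% ± 2.96 with AMI-1 and 87.5% ± 3.26 with AMI-5 (SD, n = 3). With merged exons as the length these shares were 83.3%, 83.3% and 82.9%.

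CDKN1B, which encodes the inhibitor p27, was the member that passed the test between the compounds. It was at 52.7, 56.7 and 60.7 CPM in control, 67.5, 63.4 and 74.8 under AMI-1 and 47.6, 61.9 and 59.1 under AMI-5. All 3 AMI-1 libraries stood above all 6 others, whereas control and AMI-5 overlapped. Group means were 56.7 ± 4.03, 68.6 ± 5.79 and 56.2 ± 7.60 CPM (SD, n = 3). Against AMI-1, CDKN1B was lower with AMI-5 by a log2 change of -0.29, a fold of 0.815 (SE 0.07, interval -0.45 to -0.14, edgeR adjusted p = 0.0275 with the block and not passing without it).

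The difference between AMI-5 and AMI-1 in CDKN1B was -0.50, -0.03 and -0.34 in libraries 1, 2 and 3, so library 2 showed almost none of it. The edgeR adjusted p with the block was 0.0526 without control library 1, 0.327 without AMI-1 library 1 and 0.278 without AMI-5 library 1. With AMI-5 against control the log2 change was -0.02 (interval -0.18 to 0.14, edgeR adjusted p = 0.899 with the block). With AMI-1 against control the fitted value was 0.28 (interval 0.12 to 0.43), from number-matched differences of 0.36, 0.16 and 0.30.

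The 250 bases before the annotated start of CDKN1B are shown because it was the member that differed between the compounds. The sequence is RefSeq's, on GRCh38.p14, chr12:12717118-12717367, plus strand, written 5′ to 3′. Capitals mark 2 CCAAT words and 1 GC box word, GGGCGG, found by a search of both strands.
CDKN1B: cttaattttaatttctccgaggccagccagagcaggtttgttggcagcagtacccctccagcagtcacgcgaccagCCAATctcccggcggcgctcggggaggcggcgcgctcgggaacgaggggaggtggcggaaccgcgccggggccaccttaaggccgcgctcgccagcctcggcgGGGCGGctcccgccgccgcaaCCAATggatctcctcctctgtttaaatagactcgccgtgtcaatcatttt
The CCAAT words began 174 and 50 bases before the start and the GC box word 71 bases before it. Of 35116 RefSeq promoter windows of the same length, 32.0% held CCAAT and 42.6% held GGGCGG, so neither word is rare. RefSeq's table held such a window for 8 of the 10 genes. CCND1 and CCND2 were the others.

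CDKN2C, which encodes the CDK4/6 inhibitor p18, was at 61.4, 50.6 and 59.6 CPM in control, 67.1, 54.8 and 58.3 under AMI-1 and 53.3, 49.5 and 59.9 under AMI-5. The 3 groups overlapped. Its log2 change with AMI-5 was -0.07 (interval -0.22 to 0.07, edgeR adjusted p = 0.529 with the block) and 0.05 with the GC correction added. With AMI-1 it was 0.07 (interval -0.08 to 0.22), or 0.10 (interval 0.0030 to 0.20) with the GC correction. Between the compounds it was -0.14 (interval -0.29 to 0.01, edgeR adjusted p = 0.275), or -0.057 with the GC correction, and passed without AMI-1 library 3 (-0.22, adjusted p = 0.0199). That fit called 3465 genes between the compounds, beside 296 higher and 636 lower of 18284 with all libraries.

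The pocket protein genes did not pass the test with AMI-5, and their levels followed the replicate number more than the treatment. RB1, whose product holds activator E2Fs inactive, was at 87.4, 160.5 and 111 CPM in control, 101, 155 and 134 under AMI-1 and 99.4, 181 and 119 under AMI-5. Library 2 was highest and library 1 lowest in each group. RBL1, which encodes the relative p107, was at 45.0, 72.1 and 51.5 CPM in control, 45.4, 78.2 and 60.04 under AMI-1 and 50.5, 81.2 and 56.5 under AMI-5, in the same order of libraries. Each AMI-5 library was above its own-numbered control for both genes, by 0.19, 0.17 and 0.10 for RB1 and 0.17, 0.17 and 0.14 for RBL1 on the log2 scale.

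With the block the AMI-5 change was 0.15 for RB1 (interval 0.01 to 0.29, edgeR adjusted p = 0.149) and 0.16 for RBL1 (interval 0.02 to 0.30, edgeR adjusted p = 0.120). It was 0.016 and 0.062 with the GC correction added. RB1 passed without AMI-1 library 2, AMI-1 library 3 or AMI-5 library 3 (adjusted p = 0.0473, 0.0172 and 0.0440), and RBL1 without AMI-1 library 3 (0.0197). Over all genes those fits called 2969, 4283 and 2900 with AMI-5. With all libraries 629 of the 18284 genes tested were higher and 1373 lower, so nothing is read from these passes. The AMI-1 values were 0.14 (interval 0.0021 to 0.29) for RB1 and 0.12 (interval -0.01 to 0.26) for RBL1. With the GC correction added they were 0.062 (interval -0.02 to 0.14) and 0.078 (interval -0.02 to 0.17). RBL2, which encodes the relative p130, was at 54.96, 67.3 and 57.6 CPM in control, 58.5, 62.8 and 65.1 under AMI-1 and 56.0, 66.4 and 59.3 under AMI-5. The groups overlapped, and its AMI-5 change was 0.02 (interval -0.12 to 0.15, edgeR adjusted p = 0.901 with the block), or -0.041 with the GC correction. Per length of the longest transcript RB1 made up 52.5% of the pocket proteins in control, 53.4% with AMI-1 and 53.7% with AMI-5, RBL1 21.0%, 21.1% and 21.5%, and RBL2 26.5%, 25.5% and 24.8%.

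RBL1 is itself known as an E2F target, and its was the single window of the 8 that held an E2F word. Only the first listed window of each gene was searched. A gene without the word there may hold it at another start, and RB1 and the others are not shown to lack it. The 60 bases before its annotated start are shown with 2 such words in capitals. The sequence is RefSeq's, on GRCh38.p14, chr20:37095998-37096057, minus strand, written 5′ to 3′.
RBL1: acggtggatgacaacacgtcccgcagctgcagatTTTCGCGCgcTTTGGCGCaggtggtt
The first word, TTTCGCGC, lies 26 to 19 bases before the start and the second, TTTGGCGC, 16 to 9 bases before it. The search used TTTCCCGC, TTTGGCGC, TTTCGCGC and TTTGCCGC on both strands, and 2.79% of all 35116 windows held at least 1 of them. A word match is a description of the letters and no measure of binding.

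The share of each gene's variation that went with the replicate number is given as a description. It uses all 9 libraries, among them the control and AMI-1 values on which CCND1 is taken to have been selected. The place of CCND1 in it therefore supports nothing. Of the sum of squares of log2 CPM over the 9 libraries, 83.7% lay between the treatments and 14.7% between the replicate numbers for CCND1. For CDKN1B the shares were 54.9% and 25.5%. For the other 8 genes the replicate number held 56.9% (CDKN2C) to 94.5% (CCND3), with 91.1% for RB1 and 93.2% for RBL1, and the treatments held 2.90% (CCND3) to 20.2% (CDKN2C).

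Library 2 was above library 1 in the members of lowest GC content and below it in those of highest. The mean difference over the 3 groups was 0.79 for RB1, 0.72 for RBL1 and 0.54 for CDK6 on the log2 scale, and the longest transcripts of these genes held 37.3%, 40.0% and 39.5% GC. RBL2 (43.2% GC) and CDKN1B (47.7%) differed by 0.21 and 0.13. CCND1 (50.3%) differed by -0.17, CDK4 (53.6%) by -0.23, CDKN2C (58.1%) by -0.23 and CCND3 (56.2%) by -0.75. CCND2 (45.5% GC), with its few counts, was at -0.49. Adding the GC correction to the block left CCND1 at -0.36 with AMI-5 (edgeR adjusted p = 1.37e-08) and CDKN1B at -0.30 between the compounds (edgeR adjusted p = 0.0043).

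**Figure D2:**
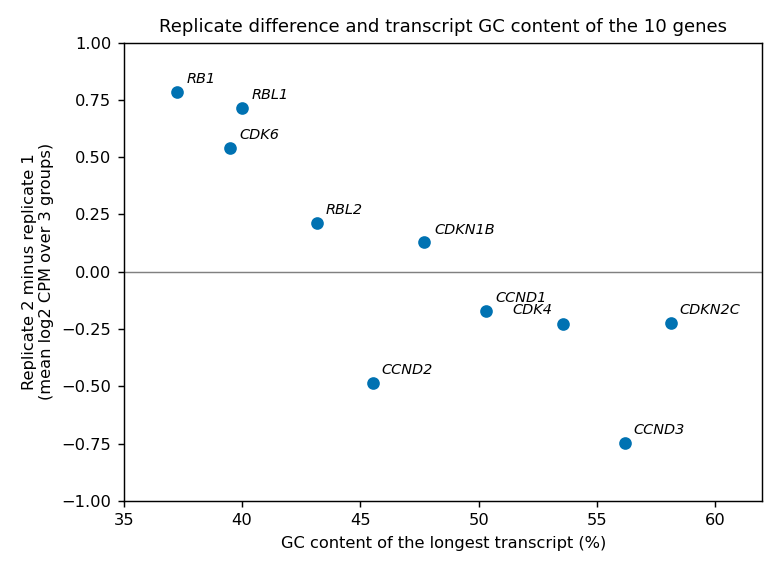
Difference between replicate 2 and replicate 1 of each of the 10 genes (mean log2 CPM over the 3 groups, vertical axis) against the GC content of its longest transcript in percent (horizontal axis). Each point is 1 gene; RB1, RBL1 and CDK6, at 37.3% to 40.0% GC, lie at 0.54 to 0.79 and CCND3, at 56.2% GC, at -0.75.

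Counted over the set with the replicate block, 1 of the 10 genes was lower with AMI-5 than in control (CCND1) and none was higher, where 7.51% of all genes tested were lower and 3.44% higher. Between AMI-5 and AMI-1, 1 of the 10 was lower with AMI-5 (CDKN1B) and none higher, where 3.48% of all genes were lower and 1.62% higher. With AMI-1 against control 1 of the 10 was lower (CCND1) and none higher, where 0.18% of all genes were lower and 0.23% higher. That count comes from the comparison the set is taken to have been chosen on, and nothing is read from it. The median log2 change of the 10 was 0.02 with AMI-5 and -0.02 between AMI-5 and AMI-1, beside -0.0050 and -0.0063 for all genes. These counts of 1 in 10 are no result about the set as a whole.

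**Figure D3:**
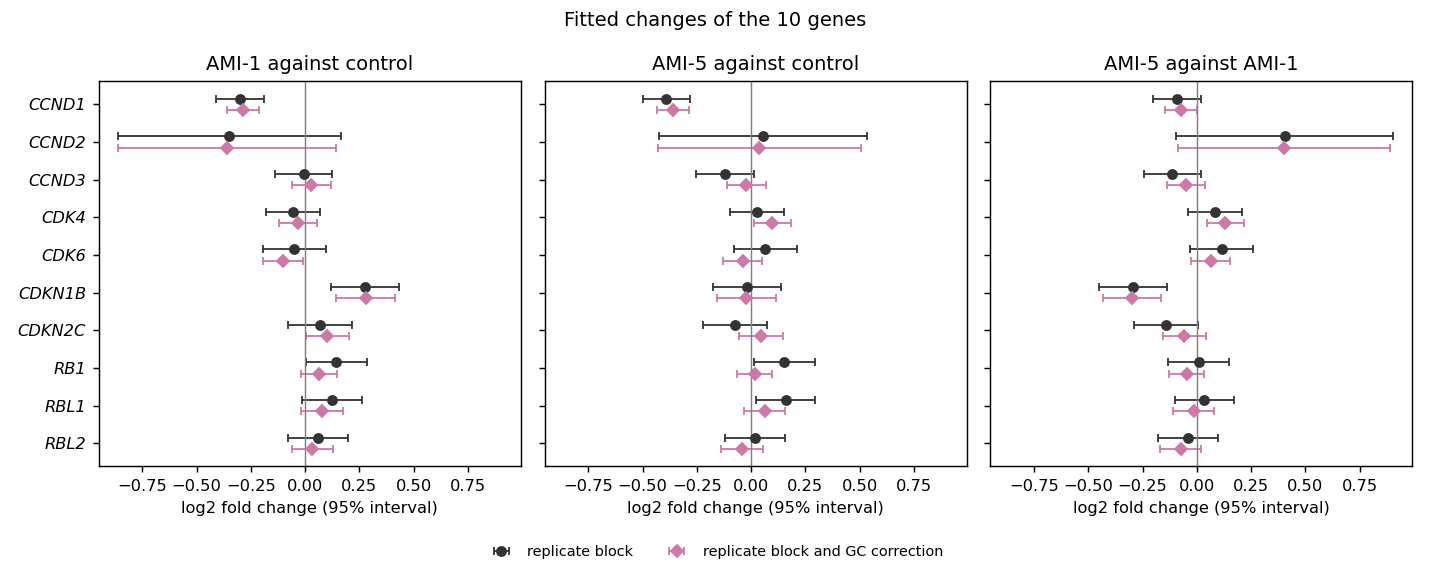
Fitted log2 fold change of the 10 genes in the 3 comparisons, with 95% intervals, from edgeR fits with the replicate block (black circles) and with the block and the GC correction (pink diamonds). CCND1 lies at -0.30 and -0.39 against control for AMI-1 and AMI-5, CDKN1B at -0.29 between the compounds, and the interval of CCND2 is the widest in each panel.

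The genes whose pattern was most like that of CCND1 were ranked by Pearson's r of log2 CPM over the 9 libraries after the mean of each replicate number was removed, among 15280 genes. The first 5 were TXNL4A, a spliceosome protein gene (r = 0.987), AC018804.7 (0.987), USP36, a nucleolar deubiquitinase gene (0.987), ABCF2 (0.986) and AC004383.4 (0.984). Their levels went from 86.8 CPM in control to 80.4 with AMI-1 and 79.4 with AMI-5 for TXNL4A, and from 67.2 to 59.4 and 57.1 CPM for USP36. CCND2 was too low to be ranked. Among the ranked members CCND3 was the most like CCND1, at 0.551, but only at rank 3766 of 15280. RB1 and RBL1 ran opposite to CCND1, at -0.754 and -0.837 (ranks 14018 and 14702). All of these values share the same libraries and depths and are given as a description. They were computed without the GC correction. With it the changes of RB1 and RBL1 in the blocked fit were 0.016 and 0.062 with AMI-5, in place of 0.15 and 0.16. With AMI-1 they were 0.062 and 0.078, in place of 0.14 and 0.12.

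Around the 10 genes, 4 lists of the pathway were examined with the block. Of 20 other regulators of the G1 phase 19 were tested (CDKN1C was not in the tables): with AMI-5 2 rose and 2 fell, with AMI-1 0 passed, and between AMI-5 and AMI-1 1 was higher, which is to be read beside the shares of all genes given above. Their median log2 change was 0.01 with AMI-1 and 0.07 with AMI-5, beside -0.0019 and -0.0050 for all genes. CDKN2A, which encodes the CDK4/6 inhibitor p16 and ARF, was at 434, 172 and 367 CPM in control, 402, 162 and 271 under AMI-1 and 304, 129 and 298 under AMI-5. Each AMI-5 library was below its own-numbered control. CDKN2A fell by 0.40 with AMI-5 (SE 0.08, edgeR adjusted p = 0.0034 with the block, 0.0995 without AMI-5 library 1). With the GC correction added the value was -0.24 (adjusted p = 9.4e-05).

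CDKN2B, which encodes the CDK4/6 inhibitor p15, ordered all 9 libraries by treatment. It was at 44.0, 48.4 and 43.9 CPM in control, 39.3, 40.7 and 37.1 under AMI-1 and 50.9, 56.2 and 53.5 under AMI-5, with no overlap between any 2 groups. It was higher with AMI-5 than with AMI-1 by 0.46 (SE 0.07, edgeR adjusted p = 0.000332 with the block), a call kept in each of the 9 fits with 1 library left out. Against control it rose by 0.24 with AMI-5 (edgeR adjusted p = 0.0246), a call lost without any 1 of the 3 control or 3 AMI-5 libraries (0.0556 to 0.182), and stood at -0.22 with AMI-1 (edgeR adjusted p = 0.199). The sources used here do not state the counting strand, so reads of CDKN2B cannot be told apart from those of its antisense transcript.

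CDK7, the kinase that activates other cell cycle kinases, rose by 0.32 with AMI-5 (edgeR adjusted p = 0.0246), and lost the call without control library 1 or 3 or any 1 AMI-5 library (0.0650 to 0.246) and by DESeq2 with the block (0.0514). FBXO31, which encodes a subunit of a ubiquitin ligase, fell by 0.27 (edgeR adjusted p = 0.0437) and lost the call without control library 1 or 3, AMI-1 library 1 or AMI-5 library 1 or 2 (0.0897 to 0.377) with the GC correction (0.0998) and by DESeq2 with the block (0.0612). Its value was -0.17 without control library 1 and -0.14 with the GC correction.

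Downstream of the pocket proteins, 16 factor genes and 25 target genes were tested, against the same shares of all genes called with the block: 3.44% higher and 7.51% lower with AMI-5, 0.23% and 0.18% with AMI-1. At those shares lists of this size hold few calls, so their counts are no result about the lists. Of 16 genes of E2F factors, their DP partners and the MuvB complex, with AMI-5 1 rose, E2F5, which encodes a repressor E2F that binds p130 (0.34, edgeR adjusted p = 0.0437). It lost the call without any 1 control library, AMI-1 library 1 or AMI-5 library 1 or 2 (0.0572 to 0.271), with the GC correction (0.22, adjusted p = 0.116) and by DESeq2 with the block (0.0970). With AMI-1 0 of the 16 passed, and 0 between the compounds. Of 25 E2F target genes of S phase, such as the MCM helicase genes, 0 passed in any of the 3 comparisons by edgeR with the block. In that fit 1 (AMI-1), 7 (AMI-5) and 2 (between the compounds) of the 25 had an unadjusted p under 0.05. Of all 18284 genes tested, 1851, 4980 and 3557 did so in the same fit, so nothing is read from these counts. The median log2 change of the 25 was 0.01 with AMI-1 and 0.02 with AMI-5. The lowest adjusted p among the 25 belonged to UHRF1 (-0.21, 0.0764) and MCM5 (-0.17, 0.0793), both with AMI-5. With the GC correction MCM5 was at -0.062.

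Of 24 factors known to act on CCND1 transcription 23 were tested (LEF1 was not in the tables). With AMI-5 1 rose and 3 fell, where 3.44% of all genes were higher and 7.51% lower, and with AMI-1 1 fell, where 0.18% of all genes were lower. FOSL1, an AP-1 subunit gene, was at 105.6, 65.4 and 97.3 CPM in control, 105.4, 72.6 and 83.0 under AMI-1 and 82.9, 51.3 and 72.8 under AMI-5. It fell by 0.37 with AMI-5 (SE 0.07, edgeR adjusted p = 0.0030 with the block, 0.0714 without control library 3 and 0.0611 without AMI-5 library 1). Its AMI-1 value was -0.03 (edgeR adjusted p = 0.910), and it was lower with AMI-5 than with AMI-1 by a log2 change of -0.34 (edgeR adjusted p = 0.0067). That direct call was lost without AMI-1 library 1 or AMI-5 library 1 or 2 (0.0716 to 0.0935). With the GC correction the AMI-5 value against control was -0.23 (adjusted p = 0.00049).

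FOSL2, another AP-1 subunit gene, fell by 0.24 with AMI-5 (edgeR adjusted p = 0.0115), a call lost without control library 1 or 3 or AMI-5 library 1 or 2 (0.0868 to 0.131). ETS2, an ETS factor gene, fell by 0.31 with AMI-1 (edgeR adjusted p = 0.0348) and by 0.21 with AMI-5 (0.0384). The first call was lost without any 1 control library, AMI-1 library 1 or AMI-5 library 1 or 2 (0.0647 to 0.418), the second without any 1 control or AMI-5 library or AMI-1 library 1 (0.0589 to 0.263) and by DESeq2 with the block (0.0612). FOS, an immediate early gene, rose by 1.04 with AMI-5 (edgeR adjusted p = 0.0173) at a low level of 1.39 to 2.34 CPM in control and 1.99 to 6.84 with AMI-5. The value was 0.50 without control library 2 and 0.61 without AMI-5 library 2 (adjusted p = 0.156 and 0.222), and the call was also lost without AMI-5 library 1. DESeq2 with the block gave FOS no adjusted p. Between AMI-5 and AMI-1, JUNB and STAT3 were also lower with AMI-5 (-0.36 and -0.20) and FOXO1 higher (0.29), genes named after their values were seen, and each lost its call without AMI-1 library 1 (edgeR adjusted p = 0.310, 0.242 and 0.280). JUNB and FOXO1 also lost theirs without control library 1 or 3, AMI-1 library 2 or AMI-5 library 1 or 2, and STAT3 without control library 1 or 3 or any 1 AMI-5 library. By DESeq2 with the block JUNB and FOXO1 did not pass (0.0896 and 0.0664), and with the GC correction JUNB was at -0.23 (adjusted p = 0.0655).

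With the GC correction added to the block the calls with AMI-5 in the 4 lists became 5 higher and 1 lower, 3 and 1, 1 and 0, and 2 and 7. Of all 18284 genes that fit called 967 higher and 1521 lower. With AMI-1 the calls became 2 and 2, 0 and 0, 0 and 0, and 0 and 3, beside 238 and 385 of all genes. Between the compounds they became 3 and 1, 0 and 0, 0 and 1, and 2 and 3, beside 905 and 1251. Without the block 0 genes of the 4 lists passed in any comparison.

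**Figure D4:**
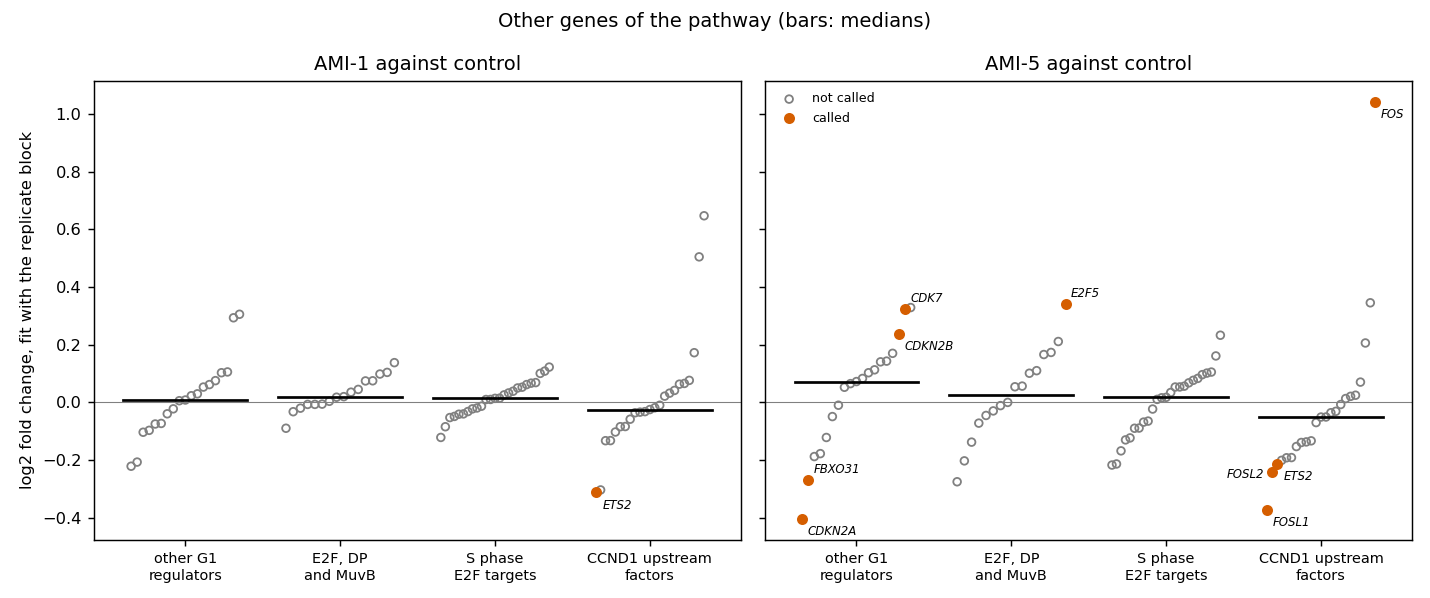
Fitted log2 fold change of each gene of 4 pathway lists with AMI-1 (left) and AMI-5 (right) against control, from the edgeR fit with the replicate block. Each circle is 1 gene, filled where the adjusted p was under 0.05, and bars are list medians; those of the S phase E2F targets are 0.01 and 0.02, and no gene of that list is filled.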

How the data were processed

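Reads were aligned to hg19 with BWA and counted per gene with bedtools, per the submitters' processing notes. The sources used here give no version, annotation, counting strand or read filter. The authors deposited 2 tables of whole-number read counts per gene, 1 for each compound. The 3 control columns held the same values in both for all shared genes, and the smallest mean count in either table was 10, so lower genes were not analysed here. Columns were mapped to samples by the sample names in the labels.

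Genes in both tables were fitted together over the 9 libraries with edgeR 4.0.16 (limma 3.58.1, R 4.3.3): TMM scaling, filterByExpr by group, glmQLFit with robust spread and glmQLFTest, a call being an adjusted p under 0.05. CPM use TMM library sizes. The first fit has the 3 groups as its only terms, and no member passed in it. The numbers pair the libraries: the library names of 1 number share a prefix, and deviations from the group means correlated at 0.398 to 0.931 in each of the 9 same-number pairs over 15281 genes. Most fitted values and all calls of the Results therefore come from a second fit with the replicate block, unless another fit is named. The GC correction was a lowess (span 0.3) of each library's deviation on transcript GC content, fitted on 14761 genes and used as an offset. DESeq2 1.42.0, its size factors, no filter, 6-library fits and each library left out were alternatives. Fits without robust spread, and without the filter but with the block, were chosen after seeing the data.

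Counts of 18226 genes were simulated, with 50 genes changed at each fold. For AMI-1 against control the blocked fit recovered 42% at a fold of 1.25 and 76% at 1.5, and called 11 unchanged genes. For AMI-5 against control it recovered 50% and 84%, and called 7 unchanged genes. The fit without the block recovered 0% at both folds. The counts were drawn with the replicate differences and the spread of the blocked fit. They therefore cannot decide which fit suits the real data. The members and lists were chosen with earlier results of these data known. Named were all members, of each list up to 4 genes with the lowest adjusted p in the blocked fit against control, and the 5 genes most like CCND1. Transcript lengths, GC and promoter windows came from the reference annotation (GRCh38), not the build of the counts, so no gene coordinates are given. The precision of a value is limited by 3 libraries per group and, for CCND2, by its counts.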

Additional observations from a re-analysis of the deposited data

How the results depend on the processing

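No member passed in the fit without the replicate block. With the replicate block 1 member passed in each comparison, and with the replicate block and GC correction 2 passed for AMI-1 against control, 1 for AMI-5 against control and 2 for AMI-5 against AMI-1. With the block kept and 1 library left out, 0 to 3 members passed for AMI-1 against control, 1 to 3 for AMI-5 against control and 0 to 3 between the compounds. The AMI-1 count was 0 without control library 1, control library 3 or AMI-1 library 1, and 3 without AMI-1 library 2. The AMI-5 count was 2 without AMI-1 library 2 or AMI-5 library 3 and 3 without AMI-1 library 3. The count between the compounds was 0 without control library 1, AMI-1 library 1 or AMI-5 library 1 and 3 without AMI-1 library 3. Size factors, the filter and the robust spread changed no count of members, and DESeq2 changed none within the same design. The fits of 6 libraries were run only without the block, where no member passed either way. They are no check of the calls made with the block. The counts for AMI-1 against control include CCND1, on whose values there the set is taken to have been chosen, and nothing is read from them. DESeq2 with the block ended the calls of the list genes CDK7, FBXO31, E2F5, ETS2 (AMI-5), JUNB and FOXO1. The cause of these changes was not tested.

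Over all genes the block moved the calls from 0 to 42 higher and 33 lower with AMI-1, 629 higher and 1373 lower with AMI-5, and 296 higher and 636 lower between the compounds. The GC correction with the block gave 238 and 385, 967 and 1521, and 905 and 1251, and DESeq2 with the block called 79, 1359 and 695 in all. With the block and 1 library left out the 3 counts ranged from 14 to 354, 155 to 4283 and 192 to 3465. The highest came without AMI-1 library 2 for AMI-1 (354). For AMI-5 (4283) and between the compounds (3465) they came without AMI-1 library 3. CCND1 kept its sign in every fit run for both compounds, and CDKN1B kept its sign for AMI-1 and between the compounds.

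A member whose sign differed from that of the fit it is set beside had not passed in that fit and did not pass with the changed sign; CDK6, RB1 and RBL1, whose signs changed, did pass with their first sign in the fits with the block and 1 library left out that the report names. For AMI-1 against control CCND3 was 0.0027 without and -0.0059 with the replicate block, and 0.028 with the block and GC correction. For AMI-5 against control the block with GC correction turned CDK6 to -0.037, CDKN2C to 0.045 and RBL2 to -0.041, and DESeq2 with the block turned CCND2 to -0.0038. Between the compounds the block with GC correction turned RB1 to -0.047 and RBL1 to -0.015.

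With 1 library left out and no block, the AMI-1 log2 changes ranged from -0.20 to 0.20 for CCND3, -0.10 to 0.0025 for CDK4, -0.20 to 0.17 for CDK6, -0.011 to 0.13 for CDKN2C, -0.059 to 0.39 for RB1, -0.091 to 0.34 for RBL1 and -0.0043 to 0.14 for RBL2. The AMI-5 changes ranged from -0.37 to 0.26 for CCND2, -0.30 to 0.070 for CCND3, -0.045 to 0.14 for CDK4, -0.082 to 0.28 for CDK6, -0.088 to 0.094 for CDKN1B, -0.13 to 0.42 for RB1, -0.070 to 0.38 for RBL1 and -0.056 to 0.11 for RBL2. Between the compounds they ranged from -0.023 to 0.82 for CCND2, -0.32 to 0.085 for CCND3, -0.030 to 0.25 for CDK6, -0.25 to 0.21 for RB1, -0.19 to 0.25 for RBL1 and -0.11 to 0.016 for RBL2.

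With 1 library left out and the block kept, the AMI-1 changes ranged from -0.067 to 0.048 for CCND3 and -0.14 to 0.028 for CDK6. The AMI-5 changes ranged from -0.21 to 0.19 for CCND2, -0.013 to 0.093 for CDK4, -0.022 to 0.14 for CDK6, -0.12 to 0.061 for CDKN1B, -0.14 to 0.0050 for CDKN2C and -0.022 to 0.065 for RBL2. Between the compounds they ranged from -0.094 to 0.10 for RB1, -0.0086 to 0.097 for RBL1 and -0.11 to 0.022 for RBL2.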
